A study of Mus musculus with 8 samples.

Results

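The 3687 Jmjd3 positions that lay inside an H3K4me3 cluster, out of 4398 Jmjd3 positions in all, are described here by where they sat in the cluster and by how wide and how strongly marked that cluster was. Positions were placed by a plain rule: a Jmjd3 position belonged to a cluster when it fell from the first to the last base of it, and its distances to the start, the centre and the end were then measured. The clusters that held at least 1 position numbered 2888 of 19631.

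The data come from ChIP-seq, chromatin immunoprecipitation followed by sequencing, in primary macrophages grown from the bone marrow of female Fvb mice aged 6 to 8 weeks. The growth protocol in the labels also names fetal livers of embryos on a mixed background, and no library used here is labelled as made from them. Jmjd3 was mapped 2 h, and H3K4me3 4 h, after stimulation with lipopolysaccharide (LPS) and interferon gamma (IFNγ). The comparison lists are H3K4me3 and H3K27me3 of untreated cells (0 h), H3K27me3 after 4 h, and RNA polymerase II (Pol II) at all 3 times. Each antibody and time was 1 library, the labels name no genetic change and do not say how many mice gave the cells, and Jmjd3 and H3K4me3 were taken at different times after stimulation. With 1 library per group no difference between conditions has a replicate check and no p-value is given. Brackets hold exact Clopper-Pearson 95% intervals for shares, exact Poisson 95% intervals for counts per length and 95% Wald intervals for differences; they cover counting error only, and neighbouring positions are not independent.

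Jmjd3, also named Kdm6b, is an enzyme that takes methyl groups off lysine 27 of histone H3 and so acts against the Polycomb mark H3K27me3; macrophages switch its gene on when they meet LPS. H3K4me3 is the methyl mark that marks active and poised promoters: it covers nucleosomes on both sides of transcription start sites, and it spreads over longer stretches at some strongly expressed and cell identity genes. The lists used here give a cluster of H3K4me3 as a stretch without a summit, so its centre is the midpoint between its edges and not a start site of transcription.

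The lists give each position or cluster the largest number of overlapping tags, called its count below. Jmjd3 counts were low, with a minimum of 9, a median of 10 and a maximum of 96. Cluster counts ran from 11 to 365 with a median of 97. The labels put every library above 10000000 tags with a unique match, and exact depths are unknown. One stretch of chromosome 11 stood apart. The cluster at 3049251 to 3100335 (mm8, as are all coordinates) held 43 Jmjd3 positions and its neighbour at 3026677 to 3049149 held 21, while no other cluster held more than 8. These 2 clusters also held 42 and 20 H3K27me3 positions at 4 h and 46 and 21 Pol II positions at 2 h. In addition, 198 Jmjd3 positions (5.37% of those held, 4.66 to 6.15) were shared with all 7 other lists. Such a position had a position of every Pol II and H3K27me3 list less than 500 bp away on either side. It also had an H3K4me3 cluster of each time within 250 bp. The part of these 2 sets in the results was not tested by other means than leaving them out, and values without them are given beside some of the results.

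Most Jmjd3 positions were inside a cluster, and those outside were rarely close to one. The share inside was 83.8% (82.7 to 84.9). Of the 711 positions outside, 7 were within 250 bp of a cluster edge, 48 within 1 kb and 173 within 5 kb, and the median distance was 17.7 kb. Few positions thus lay just beyond an edge. The nearest outside was position 39948012 on chromosome 10 (count 19), 28 bp beyond an edge, followed by position 27034241 on chromosome 12 (count 11) at 33 bp. The nearest inside was position 79055482 on chromosome 2 (count 9), 11 bp from an edge, and the next was at 92 bp. Held positions had a median count of 11 and a highest of 96, against 9 and 26 outside.

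Within clusters, Jmjd3 sat in the interior and left the margins almost empty. The central 33.3% of the cluster length held 50.5% of positions (48.8 to 52.1), the part before it 25.9% (24.5 to 27.4) and the part after it 23.6% (from 22.2 to 25.001). The first 10% of the length held 1.98% (1.56 to 2.48) and the last 10% held 1.19% (0.868 to 1.60), against 15.8% (14.6 to 17.0) between 40 and 50% of the way from start to end. In base pairs, 36 positions (0.976%, 0.685 to 1.35) were within 250 bp of an edge and 732 (19.9%, 18.6 to 21.2) within 250 bp of the centre, where each of these zones made up 12.3% of the length of the clusters, averaged over the positions. Median distances were 2120 bp from the start, 2248 bp to the end and 755.5 bp from the centre.

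The start and the end of a cluster are set by genome coordinate and not by the direction of a gene. The start side of the centre held 52.5% of positions (50.9 to 54.2), so the 2 sides were close to even, with a small excess on the start side. The median signed distance from the centre was -51.5 bp, the minus sign meaning the start side.

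**Figure D1:**
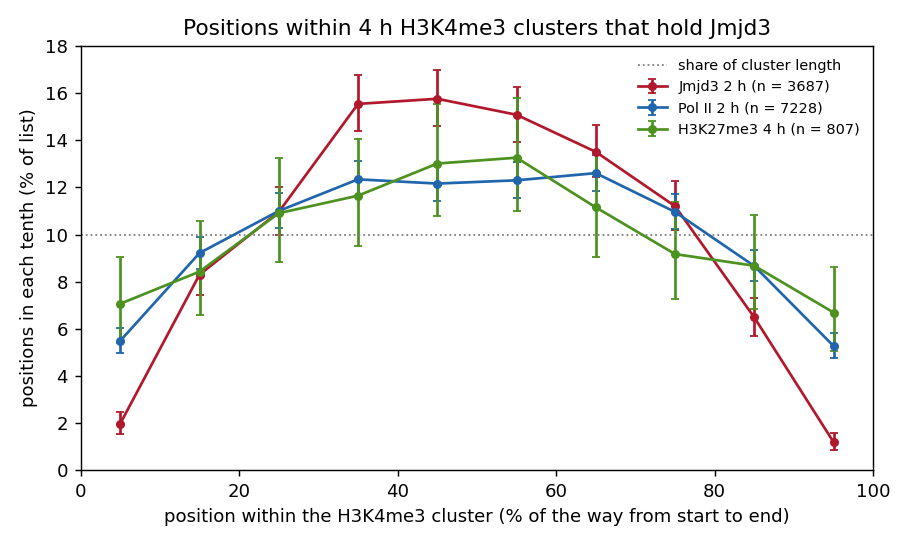
Share of each list's positions (vertical axis, percent) in each 10% of the cluster length (horizontal axis, percent of the way from start to end), in the 2888 clusters that held Jmjd3; points are shares, bars are exact 95% intervals for counting error and the dotted line is the share of length. Jmjd3 has 15.8% of its positions between 40 and 50% of the way and 1.98% and 1.19% in the outermost steps, where Pol II at 2 h and H3K27me3 at 4 h have more.

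Pol II, the enzyme that transcribes these genes, was spread more evenly through the same clusters. In the 2811 clusters that held both, 50.3% of Jmjd3 and 41.2% of Pol II positions at 2 h were in the central 33.3%, a difference of 9.09 percentage points (7.10 to 11.08). These clusters held 7228 Pol II and 3604 Jmjd3 positions. With the tallest position of each list per cluster the shares were 50.8% and 46.6%, a difference of 4.13 points (2.65 to 5.60, paired by cluster). The outermost 10% at each end together held 3.17% of Jmjd3 positions and 10.8% of Pol II positions at 2 h. In clusters without Jmjd3, 52.5% (51.6 to 53.3) of Pol II positions at 2 h were central; those clusters were narrower, with a median of 2680 bp against 4380.5 bp.

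Jmjd3 and Pol II positions nevertheless often lay close to each other. The tallest Jmjd3 position lay within 100 bp of the tallest Pol II position at 2 h in 1417 of 2811 clusters (50.4%, 48.5 to 52.3) and within 250 bp in 72.4% (70.7 to 74.1), with a median of 99 bp between them. They were on the same side of the centre in 88.3% (87.1 to 89.5). Where they were more than 100 bp apart, they were still on the same side in 78.8% (76.6 to 81.0) of 1394 clusters, and Jmjd3 was the nearer to the centre in 63.1% (60.5 to 65.6). So where the pair separated, the Jmjd3 position tended to be the inner one. Of every Jmjd3 position in a cluster with Pol II at 2 h, 89.8% (88.8 to 90.8) had a Pol II position of that cluster within 500 bp.

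H3K27me3, the mark that Jmjd3 removes, was in few of these clusters. At 0 h it was in 466 of the 2888 (16.1%) and at 4 h in 433 (15.0%), against 28.7% and 29.3% of clusters without Jmjd3. The clusters without Jmjd3 were narrower and had lower counts. In the class highest of 4 in both width and count, the direction was the opposite. There H3K27me3 was in 8.60% of holding clusters against 5.78% of the others at 0 h, and in 6.06% against 3.005% at 4 h. Where both were present, the tallest Jmjd3 and the tallest H3K27me3 position at 0 h had a median of 256.5 bp between them and those at 4 h 391 bp, more than the 99 bp for Pol II at 2 h. The 198 Jmjd3 positions shared with all 7 lists, in 149 clusters, are included in the values of this paragraph. By definition each has an H3K27me3 position of both times less than 500 bp away, and values without them are not given here. Set against the 4 h H3K27me3 list, the tallest Jmjd3 position was the nearer to the centre in 51.2% (46.3 to 56.0) of 428 clusters. The tallest Jmjd3 position was nevertheless in the central 33.3% in 56.8% of clusters and the tallest H3K27me3 position in 47.3%, a difference of 9.47 points (3.94 to 15.0), so these measures differed. Of the 807 H3K27me3 positions at 4 h in these clusters, 39.9% (36.5 to 43.4) were in the central 33.3%.

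Central placement was strongest in narrow clusters and weakest in the widest. In the narrowest 20% of clusters, up to 1780 bp, 66.9% (59.0 to 74.1) of the 160 Jmjd3 positions were in the central 33.3%, with a median of 109.75 bp from the centre. The next classes by width had 63.9% (57.2 to 70.3), 64.2% (59.2 to 68.9) and 58.4% (54.7 to 62.0), and the widest 20%, from 4360 bp, had 42.8% (40.7 to 44.9) of 2179 positions, at a median of 1294 bp from the centre. The distance to the nearer edge grew less than the width: its median was 387.5, 812, 1126, 1372.5 and 1966 bp from the narrowest to the widest class, for median widths of 1161.5, 2249, 2974, 3835.5 and 6719 bp. In the widest class the central 33.3% thus still held more than its share of length, though less clearly than in the narrower classes.

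**Figure D2:**
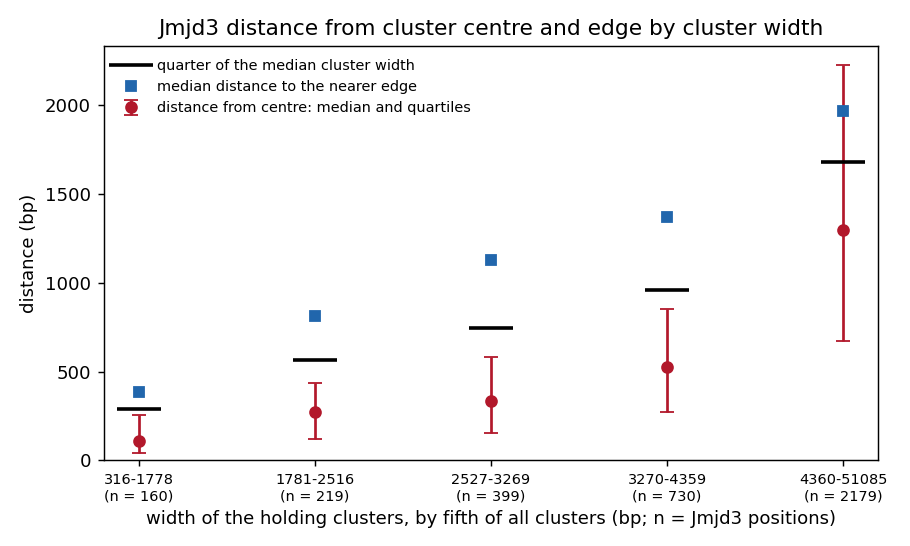
Distance in bp (vertical axis) of held Jmjd3 positions from the cluster centre (red points, with bars from the lower to the upper quartile) and to the nearer edge (blue squares, medians) in 5 classes of cluster width (horizontal axis), with black bars at the median centre distance that evenly spread positions would have. The median centre distance goes from 109.75 bp in the narrowest class to 1294 bp in the widest and is below the black bar in each class.

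In clusters at least 8 kb wide, a cut chosen after the data were seen, the highest Jmjd3 density was 1 to 2 kb inside an edge. Its interval overlapped that of the next step. There were 337 such holding clusters apart from the chromosome 11 pair. The first 1 kb from either edge had 0.0534 positions per kb (0.0374 to 0.0739), the next 0.274 (0.236 to 0.317), the third 0.211 (0.177 to 0.248) and the fourth 0.196 (0.164 to 0.232), and beyond 4 kb it was 0.196 (0.168 to 0.228). Pol II at 2 h in the same 337 clusters had 0.455, 0.703, 0.607 and 0.660 per kb in these 4 steps and 0.712 beyond 4 kb. It thus also rose from the first step to the second and was lower in the third. Among the 176 of the 337 clusters with a single Jmjd3 position, 76 of the 176 positions lay 1 to 2 kb from the nearer edge and 24 lay beyond 4 kb, at 0.216 (0.170 to 0.270) and 0.0673 (0.0431 to 0.100) per kb. Pol II at 2 h in those same 176 clusters had 0.716 (0.630 to 0.810) per kb at 1 to 2 kb, 0.580 (0.503 to 0.665) and 0.602 (0.524 to 0.689) in the next steps and 0.665 (0.583 to 0.755) beyond 4 kb. These 176 clusters have 1 Jmjd3 position each by selection, while their Pol II positions were not limited in number. A difference between the Jmjd3 and Pol II profiles was not tested.

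**Figure D3:**
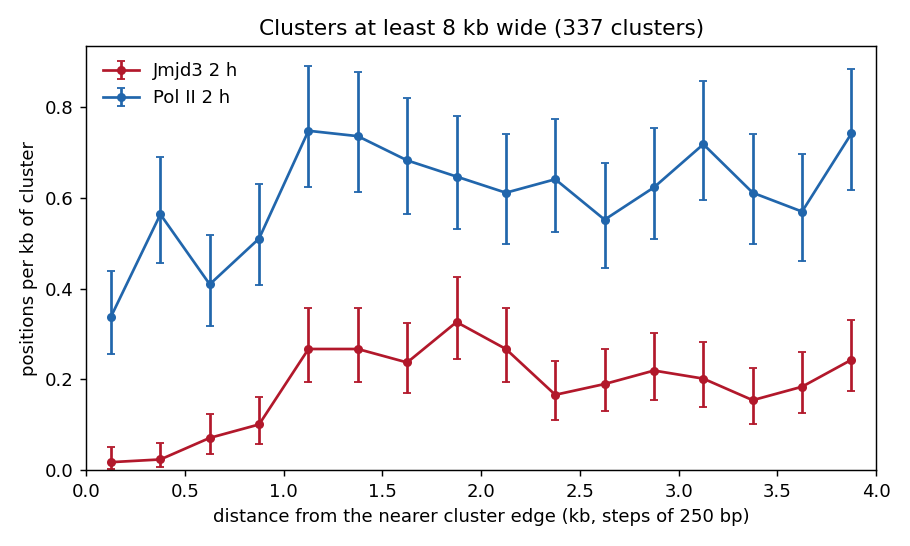
Positions per kb of cluster length (vertical axis) by distance from the nearer edge in steps of 250 bp (horizontal axis, kb) for the 337 holding clusters at least 8 kb wide, without the 2 clusters of over 20 positions; bars are exact Poisson 95% intervals. Jmjd3 rises over the first 1 kb, where it has 0.0534 positions per kb, to 0.274 between 1 and 2 kb; Pol II at 2 h is above Jmjd3 in every step.

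Taller Jmjd3 positions were less central than low ones, and they were in wider clusters. The 1022 positions at the lowest count of 9 were in the central 33.3% in 53.5% of cases (50.4 to 56.6), and the 768 positions of count 15 to 96 in 42.3% (38.8 to 45.9). The median width of the clusters behind these values was 4250 and 6576 bp, and the part that width plays in the gap was not tested. Across the 3687 positions, the distance from the centre as a share of the width and the count had a Spearman rho of 0.10 and a Pearson r of 0.10, a weak relation within 1 library.

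Most of the length of the holding clusters was also listed in untreated cells, and the Jmjd3 positions lay mainly in that part. Of the 2888 holding clusters, 56 (1.94%) had no overlapping cluster in untreated cells, against 5.61% of the 16743 others. The others were narrower and lower, with a median count of 69 against 195. Among clusters in the highest of 4 classes of both width and count, 0 of 1023 holding clusters and 0 of 1298 others had none. Among clusters with more than 1 Jmjd3 position, 3.38% had none. Over all clusters, the share of length not covered at 0 h was alike, at 14.5% in holding clusters and 14.7% in the others. Of the 3687 held Jmjd3 positions, 135 (3.66%, 3.08 to 4.32) lay in such uncovered length. In the 2832 holding clusters with an overlapping cluster at 0 h, 13.4% of the length was not covered, mostly at the margins. Of their 3606 Jmjd3 positions, 54 (1.50%, 1.13 to 1.95) were in that part. Since Jmjd3 avoids margins, the uncovered share of length was also weighted to the 10% steps in which the positions lay; it was then 7.62%, still above 1.50%.

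Whether a cluster held Jmjd3 went with both its width and its H3K4me3 count. Of all clusters, 14.7% held at least 1 position, and 14.1% did without the positions shared with all 7 lists. The share was 4.04% (3.45 to 4.71) in the narrowest 20%, or 2.75% (2.26 to 3.31) without those positions. It was then 5.39%, 9.72% and 17.3%, and 37.1% (35.6 to 38.7) in the widest 20%. In the widest 10%, from 5505 bp, it was 48.1% (45.9 to 50.3). By count, it was 3.67% (3.12 to 4.29) in the lowest class (11 to 19), 3.70% (3.12 to 4.36) in the next (20 to 53), 10.9% (9.93 to 11.9), 24.6% (23.3 to 26.0) and 30.9% (29.4 to 32.4) in the highest (205 to 365). The 2 lowest classes did not differ beyond counting error.

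Wide clusters are also strongly marked ones, with a Spearman rho of 0.61 between width and count over the 19631 clusters, so the 2 were set against each other in 4 classes each. Among the widest class, from 4021 bp, the share holding Jmjd3 was 6.05% (3.56 to 9.51) at counts of 11 to 23, 12.1% (9.78 to 14.8) at 24 to 97, 33.8% (31.5 to 36.2) at 98 to 193 and 44.1% (42.0 to 46.1) at 194 to 365. Among the narrowest class, up to 1966 bp, it was 3.34% (2.72 to 4.05), 4.28% (3.34 to 5.39), 6.10% (3.66 to 9.47) and 9.52% (3.58 to 19.6), the last resting on 63 clusters. The widest clusters of the lowest counts and the narrowest clusters of the highest counts thus held Jmjd3 far less often than those high in both. The share holding Jmjd3 was 8.42 times as high in the tallest 20% as in the lowest 20%. Weighted to the same widths it was 4.53 times as high, a value without an interval. Among clusters above the median count alone, the unweighted ratio was 2.18.

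**Figure D4:**
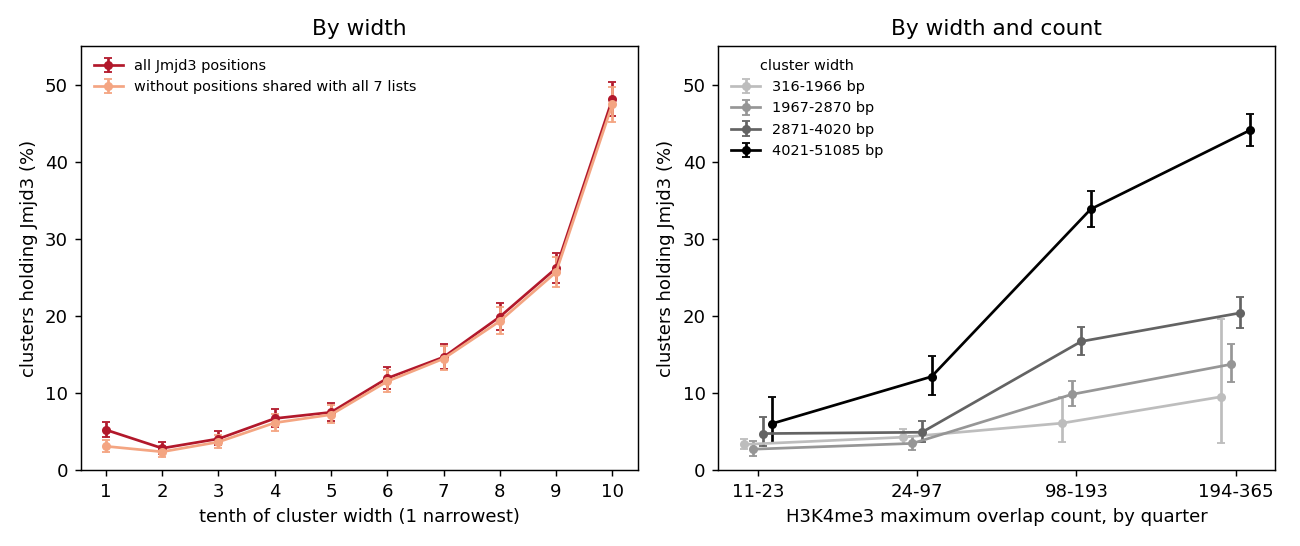
Share of 4 h H3K4me3 clusters that held Jmjd3 (vertical axes, percent) by 10% classes of width (left) and by 4 classes of H3K4me3 maximum overlap count in 4 width classes (right); bars are exact 95% intervals. The left curve reaches 48.1% in the widest class, and on the right the widest class goes from 6.05% to 44.1% as the count rises while the narrowest stays at 9.52% or below.

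The left curve had a small upturn at its narrow end. In the narrowest 10% of clusters, 316 to 1379 bp, 5.24% (4.29 to 6.31) held Jmjd3, against 2.85% (2.16 to 3.69) in the next 10%. Without the 198 positions shared with all 7 lists, the shares were 3.10% (2.38 to 3.97) and 2.39% (1.76 to 3.17), and the intervals overlapped. Per length, the gap remained without them, at 29.4 positions per Mb (22.6 to 37.7) against 15.1 (11.1 to 20.04), intervals that did not overlap. With all positions the densities were 49.3 per Mb (40.3 to 59.8) and 17.95 (13.6 to 23.3). The narrowest 10% also had the taller Jmjd3 positions, with a median highest count of 13, against 10 in the next 10%. Without the shared positions these medians were 12 and 10.

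Wide clusters held more positions per length than narrow ones. The widest 20% held 90.3 Jmjd3 positions per Mb of cluster (86.6 to 94.2) and the narrowest 20% held 30.6 (26.05 to 35.7), a ratio of 2.95. Without the positions shared with all 7 lists the densities were 86.6 and 20.9 per Mb, a ratio of 4.15. With the width classes weighted to the same H3K4me3 counts, the ratio was 1.78, a smaller gap. This weighted ratio has no interval, and it draws on narrow clusters of high count, which were few. Among clusters of up to 1966 bp, 63 were in the count class of 194 to 365. They held 6 Jmjd3 positions, or 53.6 per Mb (19.7 to 116.8).

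Most holding clusters had a single Jmjd3 position. There were 2414 such clusters (83.6%, 82.2 to 84.9), 318 with 2, 88 with 3, 37 with 4 and 31 with more. Clusters with more than 1 were 16.4% of holding clusters (15.1 to 17.8) and 2.41% of all clusters, and they held 34.5% of the held positions. Their frequency followed width: 1 of 159 holding clusters had more than 1 position in the narrowest 20%, 6 of 212, 17 of 381 and 48 of 678 in the next classes, and 402 of 1458 (27.6%, 25.3 to 29.9) in the widest. It followed the H3K4me3 count less, at 11.8% (7.17 to 18.1) in the lowest 20%, 9.42% (5.11 to 15.6) in the next and 18.4% (16.2 to 20.7) in the highest. The smallest spacing between neighbouring positions of the list was 519 bp, and its part in these shares was not tested.

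Number, width and count were related to different degrees. The median width rose with number, at 4088 bp for 1 position, 6436.5 bp for 2, 8068.5 bp for 3 and 8687 bp for 4, while the median H3K4me3 count was 194, 199.5, 206 and 195. Over the 2888 holding clusters the number of positions had a Spearman rho of 0.39 with width (Pearson 0.51, and 0.44 without the chromosome 11 pair) and 0.06 with count (Pearson 0.04). Among clusters that held Jmjd3, number thus went with width and hardly with H3K4me3 count. These are descriptions over clusters of the same libraries.

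The Jmjd3 count itself went with number more than with the cluster. The median count of the tallest Jmjd3 position was 10 in clusters with 1 position, 14 with 2, 17 with 3, 20 with 4, 28 with 5 and 39 with 6, the last from 7 clusters. Over holding clusters, the tallest Jmjd3 count had a Spearman rho of 0.41 with number, 0.24 with width and 0.07 with H3K4me3 count. In the 2739 holding clusters without a position shared with all 7 lists, rho was 0.30 with width and 0.12 with H3K4me3 count. In clusters with a single position, rho was 0.09 with width and 0.04 with H3K4me3 count, so among these the Jmjd3 count was nearly unrelated to either. A cluster with several positions has several draws for its tallest, and that part was not tested.

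Neighbouring positions in a cluster of 2 to 8 had a median spacing of 1124 bp (quartiles 805 and 1670 bp). In the 318 clusters with exactly 2, the pair lay on both sides of the centre in 142 (44.7%, 39.1 to 50.3) and on 1 side in the rest, with a median spacing of 1129.5 bp. The midpoint of the pair was a median of 720 bp from the cluster centre. In the 277 pairs with unequal counts, the taller was the nearer to the centre in 37.2% (31.5 to 43.2), so it was more often the outer one. It was the nearer to the start in 46.6% (40.6 to 52.6), an even split within counting error.

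Holding clusters were compared with the others within the class that was highest of 4 in both width and count, where 1023 held Jmjd3 and 1298 did not. Median counts were alike at 224 and 223, but the holding clusters were still wider, at 5899 against 4877.5 bp. Pol II at 2 h was in 100% and 99.8% of them, with 0.519 against 0.339 positions per kb. Pol II at 0 h was in 96.1% against 98.1%, a difference of -1.98 points (-3.39 to -0.58), with 0.418 against 0.368 positions per kb. H3K27me3 at 4 h was in 6.06% against 3.005%, a difference of 3.06 points (1.32 to 4.79), the opposite direction to that over all clusters, where the difference was -14.3 points (-15.8 to -12.8). Of the cluster length, 13.9% was not covered at 0 h in holding clusters and 9.05% in the others. In this class, holding clusters had more Pol II positions per length and more of their length outside the untreated clusters.

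Among single clusters, those richest in Jmjd3 differed in what else they held. The pair on chromosome 11 comes first, with summed Jmjd3 counts of 1596 and 817 and positions at median steps of 1079.5 and 1048.5 bp along almost their whole length. Both were almost fully covered by clusters of untreated cells (99.6% and 99.9%). The cluster at 120606048 to 120614606 on chromosome 13 had 8 positions of count 9 to 21, spread from 7.03% to 94.1% of the way, with 7 H3K27me3 positions at 4 h and 6 Pol II positions at 2 h but 0 Pol II positions at 0 h. Its first and last Jmjd3 positions, 120606649 and 120614100, had H3K27me3 positions at 4 h listed at 120606651 and 120614108.

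The cluster at 27034274 to 27043480 on chromosome 12 had 7 Jmjd3 positions, 8 Pol II positions at 2 h and 1 at 0 h, and no H3K27me3. Only 28.96% of its 9.21 kb was covered by a cluster at 0 h, whose count was 58 against 187 at 4 h. Its Jmjd3 counts were 11, 10, 10, 16, 21, 30 and 45 from start to end, and the tallest lay 86.1% of the way. Its Pol II counts at 2 h, from 253 to 398, were also highest toward the end. An eighth Jmjd3 position, 27034241, lay 33 bp outside its start. The cluster at 23894444 to 23907082 on chromosome 16 also had 7, with counts of 9 to 22, 11 Pol II positions at 2 h and 7 at 0 h, no H3K27me3, and 93.3% cover at 0 h. Most of the length of the chromosome 12 cluster was thus in the 4 h list alone, unlike that of the chromosome 16 cluster.

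**Figure D5:**
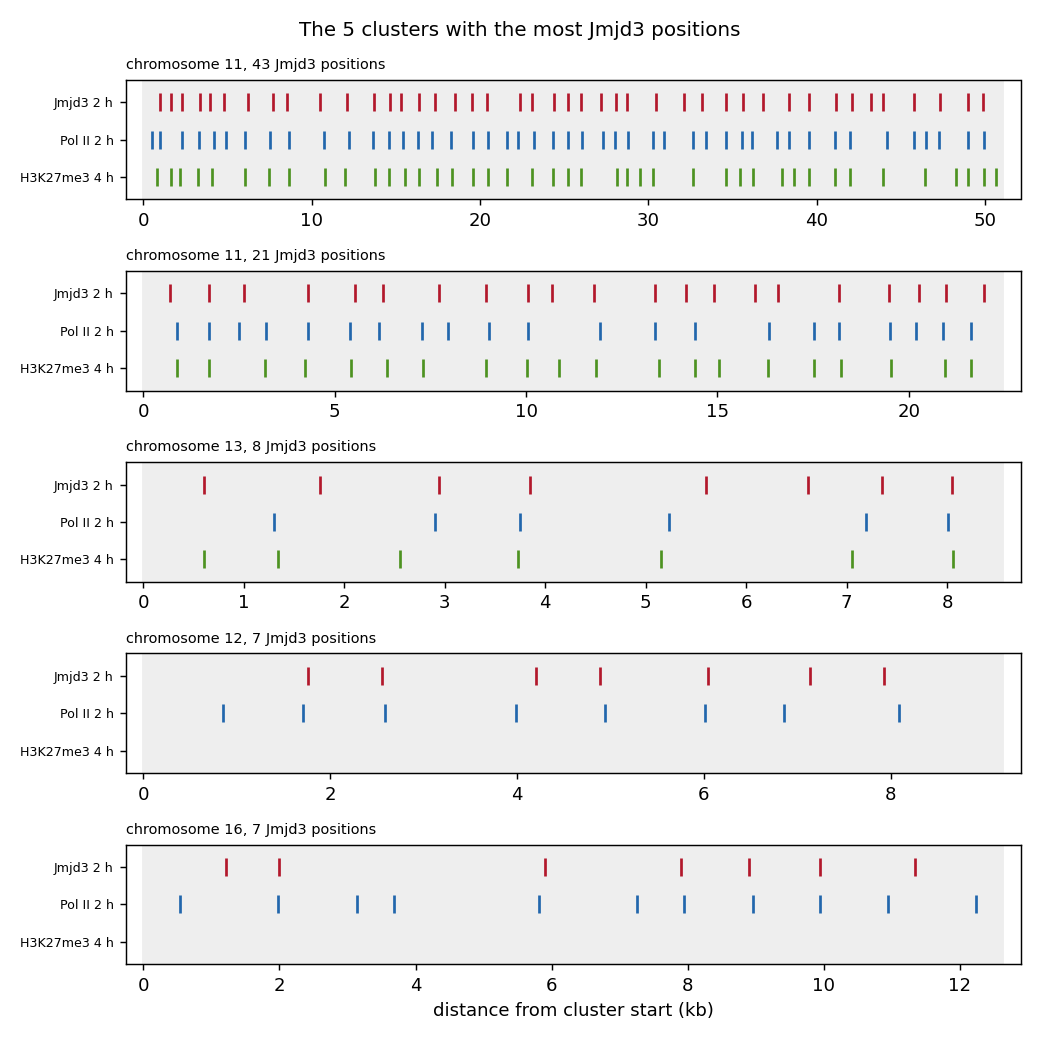
Positions of Jmjd3 at 2 h, Pol II at 2 h and H3K27me3 at 4 h (ticks, 1 row each) along the 5 clusters with the most Jmjd3 positions, by distance from the cluster start (horizontal axes, kb, each scaled to its cluster; grey is the cluster). All 3 lists run through both chromosome 11 clusters and the chromosome 13 cluster, and the chromosome 12 and 16 clusters have Jmjd3 and Pol II with no H3K27me3.

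The tallest single Jmjd3 positions were mostly in small clusters. The cluster with the tallest (count 96) was 2.17 kb wide, at 146563947 to 146566114 on chromosome 5, and the position lay 379.5 bp from its centre. The next (85) was in a cluster of 726 bp at 69864234 to 69864959 on chromosome 4, 59.5 bp from the centre. The fifth (63) was in a cluster of 1178 bp at 75722437 to 75723614 on chromosome 12, 118.5 bp from the centre. Each of these 3 positions was shared with all 7 other lists. The fourth cluster, 7.99 kb at 34869019 to 34877005 on chromosome 17, held a position of count 64 that was shared in that way and 2 others of 10 and 11. The third was the larger of the chromosome 11 pair, with 71.

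Very wide clusters did not always carry many positions. After the chromosome 11 cluster of 51.1 kb, the widest that held Jmjd3 was 37.5 kb, at 75998337 to 76035845 on chromosome 15, with 3 positions of count 9 to 14, all between 65.7% and 75.9% of the way, and 27 Pol II positions at 2 h. The 31.5 kb cluster at 5822227 to 5853762 on chromosome 19 had 6 positions, the first of them 16.6 kb from its start, and 41.4% cover at 0 h. The 26.5 kb cluster at 33518165 to 33544704 on chromosome 17 had 7 and the 23.4 kb cluster at 22739098 to 22762472 on chromosome 11 had 3, all between 82.1% and 89.4% of the way. In the chromosome 15 and 19 clusters and the last one, Jmjd3 was thus on the end side of the centre alone.

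The widest clusters without Jmjd3 were of mixed kinds. The first, 16.01 kb at 142187542 to 142203555 on chromosome 7 with a count of 209, had 13 Pol II positions in untreated cells, 1 after 2 h and 9 after 4 h. In the second, 15.2 kb at 149259335 to 149274564 on chromosome 6 (count 151), these numbers were 1, 6 and 5. The others had counts of 16 to 31, and 2 of them had no Pol II position at any time. None of the 5 had H3K27me3, and the nearest Jmjd3 position was 114 to 774 kb away.

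The 5 tallest H3K4me3 clusters that held Jmjd3 had positions of count 9 to 19, and 5 others held none by the choice of clusters. In the tallest 10% of clusters, the highest Jmjd3 count per holding cluster had a median of 11 and an upper quartile of 15. Over all holding clusters these were 11 and 13. The tallest cluster of the list, count 365 at 47576030 to 47581446 on chromosome 6, held 3 Jmjd3 positions of up to 19, with 4 H3K27me3 positions at 4 h. The next 4 tallest that held Jmjd3 had counts of 288 to 306 and 1 position each, of count 9 to 13. The 5 tallest without Jmjd3, led by 32901769 to 32906951 on chromosome 17 with a count of 328, had counts of 303 to 328, were 2.665 to 5.183 kb wide and each had 1 Pol II position at 2 h. Jmjd3 was 133 to 612 kb from them.

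Chromosome X stood apart in the share of clusters that held Jmjd3. On autosomes, 12.0% to 17.4% of clusters held Jmjd3, and on X 41 of 571 did (7.18%, 5.20 to 9.62). The share of Jmjd3 positions inside a cluster ran from 74.1% (67.2 to 80.2) on chromosome 16 to 90.0% (82.4 to 95.1) on chromosome 18, with intervals that did not overlap; on X it was 88.1% (77.1 to 95.1). The central 33.3% held from 43.7% of positions on chromosome 11, where the pair of position-rich clusters lies, to 56.7% on chromosome 1.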

How the data were processed

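For every library there is 1 deposited peak list (mm8, per the submitters' processing notes). It gives each position or cluster an overlap count in whole numbers, a signal the authors deposited without scaling to depth or a control as far as file headers and labels say. Chromatin came from 500000000 cells for Jmjd3 and 100000000 for each other library, and fragments were 200 to 300 bp, per the labels' protocols. Not given in the sources used here: aligner, peak caller, threshold and control.

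Each position was assigned to the cluster containing it (clusters do not overlap). Width and count classes were cut at quantiles, with equal values kept together. For weighting, 4 classes of the other measure were used. Relative position runs from 0 at the start to 100% at the end. Named clusters are the 5 at the top of each of 6 orders: most Jmjd3 positions, tallest Jmjd3 position, widest with and without Jmjd3, tallest with and without Jmjd3. The rule, lists and alternatives were chosen with earlier results of these data known; leaving out the 2 clusters of over 20 positions, the profile of clusters at least 8 kb wide, and 2 of the values without positions shared with all 7 lists (by width in 10 classes, and against Pol II) were added after seeing the data. Alternatives were a 250 bp margin, stricter counts, merged clusters, 0 h clusters, autosomes, and no positions shared with all 7 lists. Gene tables at hand are on GRCm38.p6, so genes and sequences are not analysed here. Tools were pandas 2.3.3 and numpy 2.4.6 for placement, scipy 1.17.1 for intervals and matplotlib 3.10.9 for plots, under Python 3.11.15, and placement was tested on simulated positions and against bedtools.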

Additional observations from a re-analysis of the deposited data

How the results depend on the processing

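The 8 main results were recomputed under alternative settings, most settings serving several results, which gave 68 values in all. Of these values, 45 stayed inside the 95% interval of the value reported and 23 moved outside it. A change of sign, counted for 0 values, was possible only for the gap to Pol II, since shares, distances and ratios are positive. The lowest width ratio was 1.78 and the lowest height ratio 2.18. Using only Jmjd3 positions above the median count gave 92.9% inside clusters, 48.1% central, a median of 888.5 bp from the centre and 7.83% of clusters holding Jmjd3. Using only clusters above the median count gave 71.7% inside, a median of 804.5 bp, 25.1% holding, a width ratio of 2.41 and a height ratio of 2.18. The 0 h clusters in place of those at 4 h gave 53.4% central, a median of 652 bp, 13.6% holding and a height ratio of 10.1. Without Jmjd3 positions shared with all 7 lists, 14.1% of clusters held Jmjd3 and the width ratio was 4.15. The median distance was 810.5 bp with clusters under 1 kb apart merged, 674.25 bp for the tallest position per cluster and 811 bp for clusters at least 2 kb wide. With 10 classes the width ratio was 2.21 and the height ratio 11.6, and weighted to the same counts or widths they were 1.78 and 4.53. The gap to Pol II was 4.13 points for the tallest positions. The cause of these moves was not tested. Both weighted ratios have no interval, and weighting over 4 classes does not hold the other measure fully fixed. Leaving out the 2 clusters of over 20 positions, chosen after seeing the data, moved none of the 8 outside its interval, and neither did autosomes alone or a margin of 250 bp where they were run. With 1 library per group no replicate could be left out. No analysis paired by library was possible because each group has 1 library, and the only pairing was by cluster. Low Jmjd3 counts, with a median of 10 and a minimum of 9, limit what the list can show, since no position under 9 is listed.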
